A study of Drosophila melanogaster with 12 samples.

Results

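Glutathione S-transferases of Drosophila melanogaster were followed as a family in whole-body RNA. A gene counted as a member when its FlyBase symbol began with Gst, continued with the class letter D, E, O, S, T or Z and then a digit. The rule found 35 of the 17610 genes in the count table. They were 11 genes of the delta class (D), 14 of the epsilon class (E), 3 of the omega class (O), 1 of the sigma class (S), 4 of the theta class (T) and 2 of the zeta class (Z). The omega gene se, which makes an eye pigment precursor, and the microsomal transferase Mgstl carry other symbols and are given with the pathway genes.

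RNA came from whole bodies of female flies of the Oregon genotype, in 4 groups of 3 libraries, all fed for 3 days on medium enriched with yeast and a green dye. The control group received water in that medium, the cisplatin group a solution of cisplatin (a platinum drug that binds DNA), the TiO2 group titanium dioxide nanoparticles, and the combination group both. The dose of each substance is labelled as 50 µg/ml in the treatment protocol and as 50 mg/ml in the sample titles. The number and age of the flies behind a library are not given in the sources used here, so the p-values measure the spread between these libraries, which may be technical. The series asks how cisplatin and TiO2 act on transcription, alone and together.

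Glutathione S-transferases join the small peptide glutathione to reactive or foreign compounds, or reduce peroxides with it, and the products leave the cell through ABCC transporters. In insects the delta and epsilon classes have expanded in tandem clusters and are best known for detoxification and resistance to insecticides, while the omega, sigma, theta and zeta classes are shared with other animals. Several members respond to oxidative stress through the transcription factor cnc, the fly counterpart of mammalian Nrf2, which Keap1 holds in check.

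Many members lay in clusters of their class, with positions as in the count table and identical for all 35 in assembly BDGP6.54. All 11 delta genes lay within chromosome arm 3R from 12364776 to 12385624, and GstE10 and GstE1 to GstE9 within 2R from 18396638 to 18409835. The other epsilon genes, GstE11 to GstE14, lay outside that cluster, and the whole class spanned 2R from 9122125 to 24768172. GstO1, GstO2 and GstO3 shared 3L from 8518885 to 8524866. The remaining named genes were GstS1 (2R, 17093246 to 17099501), GstT1 (2R, 9605988 to 9607184), GstT4 on the X chromosome, and GstZ1 and GstZ2 on 3R within 9455517 to 9460652. The theta class was thus split, with GstT1 and GstT2 on 2R, and GstT3 and GstT4 far apart on the X chromosome. In 16 of the 35 genes every annotated transcript was a single exon. No member overlapped another gene on its own strand, and 7 overlapped one on the opposite strand, among them GstE1 with GstE10, GstE9 with imd, and GstO2 with se. The strand setting of the counting is not given in the sources used here, and clustered paralogs can share reads, so values of these overlapping or closely similar members are uncertain to that extent.

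Library totals ran from 26763042 to 46694769 counts. A library could therefore show a gene from about 0.0649 to 0.112 CPM upward (CPM, counts per M counts of the TMM-scaled library, with M for mega; the floor is 3 counts and covers counting error only). Mitochondrial genes took 6.20% to 9.45% of counts in 10 libraries, 12.4% in combination replicate 2 and 16.7% in control replicate 1. A list of 12 transcripts of male glands, testis and dosage compensation summed to 0.246 to 5.55 CPM in 11 libraries and to 1167 CPM in combination replicate 2, where all 12 were detected. Both libraries stayed in the fits. Ovary, fat body, gut, muscle and Malpighian tubule markers were present in every library, as whole female bodies should hold them. Summed ovary markers ran from 4680 to 11202 CPM in control and from 12873 to 21290 CPM after cisplatin, without overlap. They ran from 2971 to 15980 CPM with TiO2 and from 2574 to 8309 CPM in the combination. Summed gut markers ran from 2846 to 5829, 3320 to 4380, 1892 to 3614 and 2033 to 2660 CPM in the same order. The gut sum of the combination was thus wholly below control. In such bulk RNA, fewer cells of a tissue and less RNA per cell cannot be told apart.

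The family's RNA came largely from the delta gene GstD1. Per kilobase of gene length (RPKM, CPM per kilobase of merged exons), the delta class held on average 51.0% of the family's summed level, the epsilon class 25.6%, the sigma class 11.5%, the theta class 6.93%, the omega class 4.21% and the zeta class 0.787%. The share of a class differed between libraries, from 35.1% to 60.1% for delta and from 3.55% to 32.6% for sigma. GstD1, the most studied delta enzyme and a reporter of oxidative stress, stood first with a mean of 1129 RPKM. The whole delta class summed to 1114 to 1646 RPKM in the libraries, so most of its share was GstD1. GstS1 followed with 326 RPKM, then GstE6 with 168, GstE1 with 146, GstE12 with 102 and GstD3 with 85.6. At the other end GstD6 had a mean of 0.347 RPKM and between 2 and 27 counts in a library. The most abundant delta gene was also the steadiest member, since GstD1 differed only 1.35-fold between its highest and lowest library, whereas GstD11, GstD5 and GstD4 differed 47.3-fold, 47.2-fold and 41.1-fold. The lowest library held 1 count of GstD11, under the floor of 3 counts, 26 of GstD5 and 6 of GstD4. The ratios of GstD11 and GstD4 are therefore rough.

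**Figure D1:**
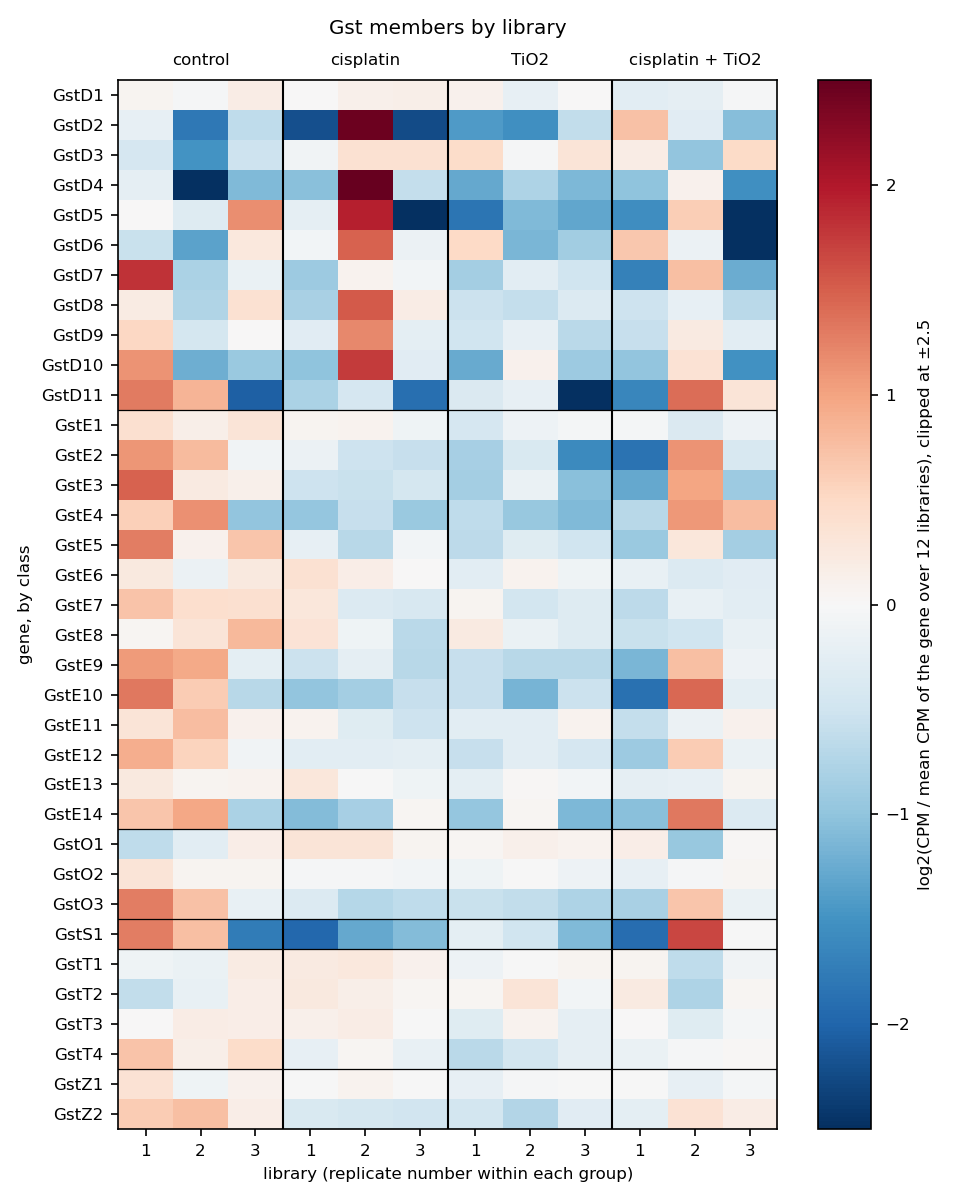
Level of the 35 members in each of the 12 libraries, as the log2 ratio of its CPM to its own mean CPM over all libraries, clipped at 2.5 either way; rows are genes by class and columns are libraries by group. Cisplatin replicate 2 is the reddest library in 7 delta genes, and control replicates 1 and 2 with combination replicate 2 are red in much of the epsilon class, GstO3 and GstS1.

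Treatment against control was tested first. Most epsilon genes, GstO3, GstT4 and GstZ2 had lower means after cisplatin or TiO2 than in control. GstD3, the scarce GstD6, GstO1 and GstT2 had higher means after both, and further members after cisplatin only. However, no member passed the adjusted threshold of 0.05 in edgeR's quasi-likelihood test (Benjamini-Hochberg over 11060 genes). No gene of the whole table passed either, which makes the background 0% in each of the 7 tests. At an unadjusted p under 0.05, cisplatin against control had 12 members, 2 of them higher and 10 lower, where 18.3% of all genes tested reached that level (3.27% higher and 15.0% lower). TiO2 against control also had 12, with 1 higher and 11 lower, against a background of 16.5% (3.71% higher and 12.8% lower). The combination against control had 7, all lower, against 7.09% of genes (3.27% higher and 3.82% lower). As shares of the family these were 34.3%, 34.3% and 20.0%. Single libraries moved these counts and the share of all genes together. After cisplatin 5 members were left without cisplatin replicate 2 (7.49% of genes), without cisplatin replicate 3 (7.71%) or without control replicate 1 (5.31%), and 6 without control replicate 2 (8.23%). With TiO2 7 were left without control replicate 1 (6.37%) or without TiO2 replicate 1 (9.89%). The combination had 3 without control replicate 1 (4.64%) or without combination replicate 1 (6.23%), and 13 without combination replicate 2 (21.9%). All 35 members passed the filter on low counts.

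The direction of the members was counted in the same way. After cisplatin 22 of 35 members had a fold change below 0 and 13 above, beside 51.3% of all genes below and 48.7% above. With TiO2 31 of 35 were below 0 and 4 above, beside 53.9% and 46.1% of genes. In the combination 27 of 35 were below 0 and 8 above, beside 45.1% and 54.9% of genes. The family's median log2 fold change was −0.28 with cisplatin, −0.56 with TiO2 and −0.29 in the combination, beside medians over all genes of −0.03, −0.08 and 0.05. The cisplatin median was −0.60 without cisplatin replicate 2 and −0.11 without control replicate 1, and the combination median −0.55 without combination replicate 2 and −0.45 without control replicate 3. These 3 comparisons share the control libraries, so a high or low control library moves all of them in 1 direction.

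**Figure D2:**
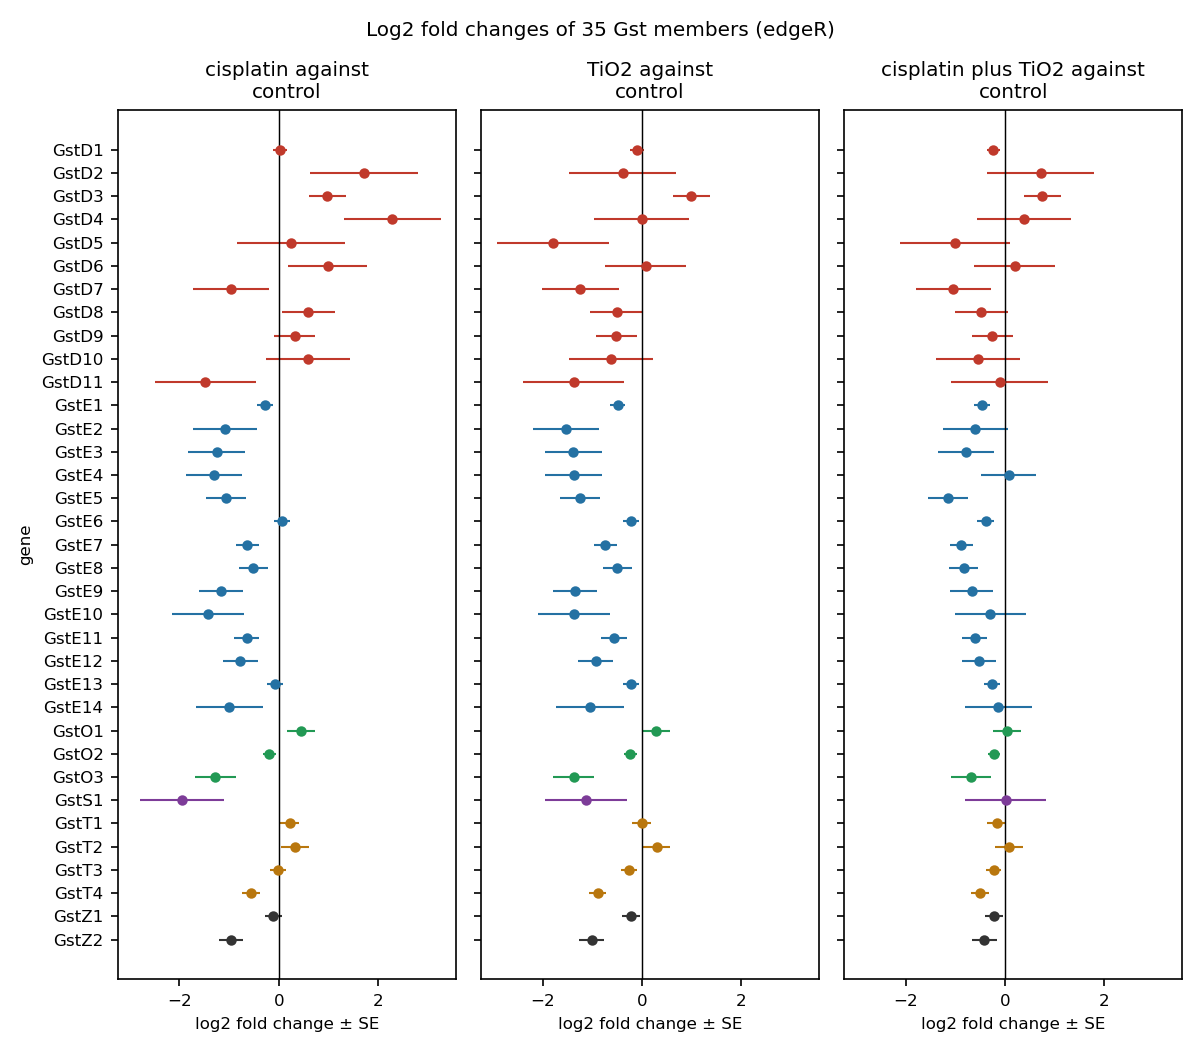
Log2 fold change with its standard error for each of the 35 members (rows, coloured by class) in the 3 comparisons with control, from the edgeR fit. Epsilon genes (blue) lie left of 0 in 13, 14 and 13 of 14 cases. Delta genes (red) lie on both sides, with a narrow error for GstD1 and wider errors for the others.

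The count of members depended on the method. DESeq2 called 1 member after cisplatin (1.98% of genes called), 4 with TiO2 (3.45%) and 1 in the combination (1.01%, with 34 members tested). limma voom with sample weights called 22, 20 and 14, where it also called 73.6%, 71.5% and 58.4% of all genes. Its weight was 4.69 for control replicate 2, beside 0.278 and 0.116 for control replicates 1 and 3. For combination replicate 3 it was 6.48, beside 0.355 and 0.0623 for combination replicates 1 and 2. The control and combination levels of that fit therefore rest mostly on 1 library each. In the authors' deposited table, whose design is not stated, 1 member was called after cisplatin (GstZ2, with 0.878% of genes), 6 of 34 with TiO2 (GstD5, GstE5, GstE9, GstO3, GstT4 and GstZ2, with 4.03%) and 1 in the combination (GstE7, with 0.484%).

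Delta class. GstD1 was counted at 996, 927 and 1076 CPM in the control libraries, at 963, 1039 and 1052 CPM after cisplatin, at 1028, 826 and 954 CPM with TiO2, and at 797, 819 and 937 CPM in the combination. The groups overlapped, apart from the combination libraries, which were all below the cisplatin libraries. The log2 fold change against control was 0.03 ± 0.14 (SE) with cisplatin, −0.09 ± 0.14 with TiO2 and −0.23 ± 0.14 in the combination.

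GstD3 followed GstD1 among the delta genes in level per length. Its level was 48.0, 22.8 and 44.5 CPM in control, 60.1, 83.3 and 83.1 CPM after cisplatin, 88.4, 62.3 and 79.8 CPM with TiO2, and 72.3, 32.3 and 89.4 CPM in the combination. Every library of either single treatment was above every control library, while combination replicate 2 lay within the control range. Its log2 fold change was 0.97 ± 0.37 with cisplatin, 1.00 ± 0.37 with TiO2 and 0.75 ± 0.37 in the combination (edgeR quasi-likelihood, Benjamini-Hochberg adjusted p = 0.27, 0.30 and 0.777). The combination value was 0.44 without combination replicate 3 and 0.48 without control replicate 2. GstD3 was the only member higher without overlap against control, after cisplatin (15.6% of genes) and with TiO2 (11.3% of genes), and no member was in the combination (1.76% of genes).

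In 7 of the other 9 delta genes a single library, cisplatin replicate 2, was the highest. GstD2 stood at 82.6 CPM there and at 3.31 and 3.22 CPM in the other cisplatin libraries. In control it was at 13.1, 4.39 and 9.75 CPM, with TiO2 at 5.69, 5.26 and 9.87 CPM, and in the combination at 25.1, 12.5 and 7.21 CPM. The next highest library, combination replicate 1, was thus 3.30-fold lower.

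GstD4 was at 8.80 CPM in cisplatin replicate 2, 5.58-fold above any other library, and GstD8 at 8.75 CPM, 2.23-fold above. GstD5 (37.3 CPM), GstD6 (0.747 CPM), GstD9 (61.3 CPM) and GstD10 (34.0 CPM) exceeded their next library 1.73-fold, 1.73-fold, 1.61-fold and 1.56-fold. GstD1, GstD3, GstD7 and GstD11 were not highest in that library. Only 16 of the 11060 genes tested (0.145%) were more than 1.5-fold above every other library in cisplatin replicate 2, and 7 of them were these delta genes. These 7 genes and the limit of 1.5 were chosen after their values were seen. The 7 included neighbours on both strands: GstD9 and GstD10 lie on the minus strand and the others on the plus strand of the cluster, with GstD1 and GstD3 among them.

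**Figure D3:**
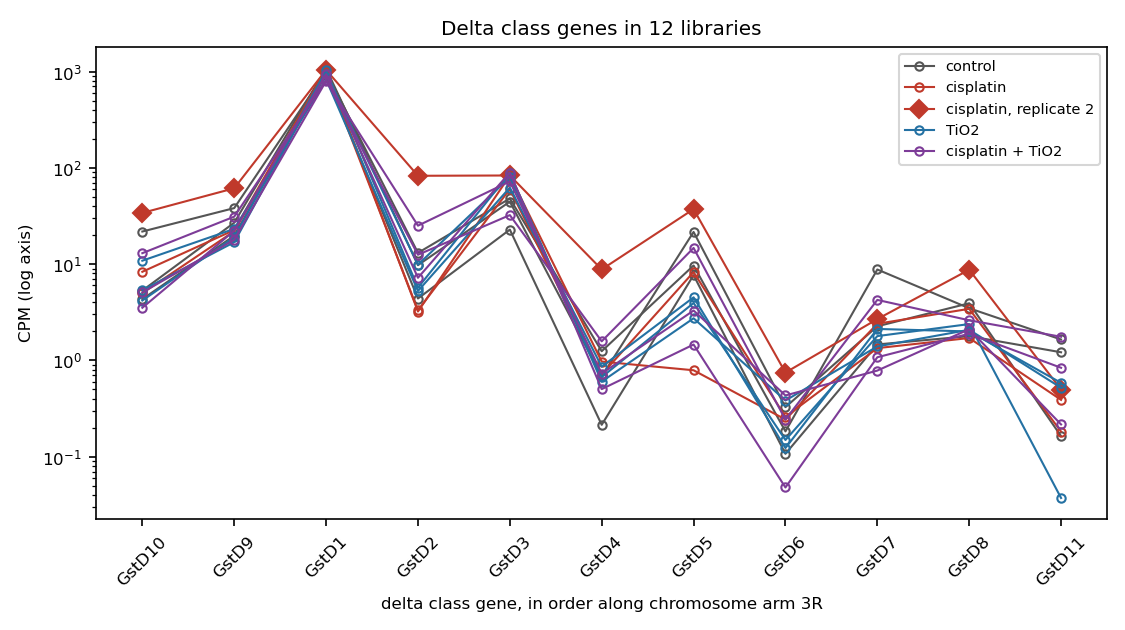
CPM of the 11 delta genes (log axis) in their order along chromosome arm 3R, with points for the 12 libraries coloured by group. Cisplatin replicate 2 is drawn as filled diamonds joined by a line, and the other libraries as open circles. Diamonds lie above all other libraries at GstD10, GstD9, GstD2, GstD4, GstD5, GstD6 and GstD8, and within them at GstD1, GstD3, GstD7 and GstD11.

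The direction of the delta class after cisplatin depended on that library. The class median log2 fold change was 0.59 with all libraries, with 9 of 11 genes above 0, and −0.34 without cisplatin replicate 2, with 4 of 11 above 0. It was 0.23 without control replicate 2 and 1.00 without cisplatin replicate 1. With TiO2 the median was −0.51 and in the combination −0.23, with 2 and 4 of 11 above 0. The medians kept their sign under all other scalings of the libraries, with a range of 0.59 to 0.61 for cisplatin. Without control replicate 1 the TiO2 median was −0.088 and the combination median 0.11, the latter with 8 of 11 above 0. Without control replicate 3 the TiO2 median was −0.32, and without combination replicate 2 the combination median was −0.50. With voom weights, where the control level rests mostly on control replicate 2, the TiO2 median was 0.23. In cisplatin replicate 2 mitochondrial genes took 8.39% of counts, beside 6.20% and 7.53% in the other cisplatin libraries, and the male list was at 0.277 CPM.

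Epsilon class. Epsilon genes averaged below control in nearly every case: 13 of 14 had a fold change below 0 after cisplatin, 14 of 14 with TiO2 and 13 of 14 in the combination. Their median log2 fold changes were −0.88, −0.99 and −0.56, with 6, 8 and 6 of 14 genes lower at an unadjusted p under 0.05 (15.0%, 12.8% and 3.82% of all genes tested). The median stayed below 0 in all 21 alternative fits, from −1.04 to −0.70 for cisplatin, −1.21 to −0.77 for TiO2 and −0.98 to −0.34 for the combination. The smallest size in each came from leaving out control replicate 1, and the largest from leaving out control replicate 3 or, for the combination, combination replicate 2. Without combination replicate 1 the combination median was −0.37.

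Summed over the class, epsilon RNA was 1075, 836 and 761 RPKM in control and 692, 633 and 577 RPKM after cisplatin. With TiO2 the sum was 516, 599 and 556 RPKM, and in the combination 488, 762 and 577 RPKM. Both single treatments lay wholly below control, and combination replicate 2 lay just inside the control range. A sum over chosen members was not tested.

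GstE7 was among the 3 members with the smallest p in the combination. Its level was 53.9, 44.0 and 43.6 CPM in control, 39.8, 26.1 and 25.0 CPM after cisplatin, 34.6, 24.0 and 26.1 CPM with TiO2, and 20.9, 28.8 and 27.5 CPM in the combination. All 9 treated libraries were below all 3 control libraries. In log2 terms the fold change was −0.64 ± 0.23 with cisplatin, −0.74 ± 0.23 with TiO2 and −0.87 ± 0.23 in the combination (edgeR quasi-likelihood, Benjamini-Hochberg adjusted p = 0.27, 0.30 and 0.60). In DESeq2 the combination passed with an adjusted p of 0.0294.

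GstE1, an enzyme known to act on lipid peroxidation products, gave 161, 134 and 152 CPM in control, 128, 129 and 112 CPM after cisplatin, 90.4, 111 and 118 CPM with TiO2, and 118, 95.2 and 111 CPM in the combination. Here too all treated libraries were below all control libraries. On the log2 scale the fold change with TiO2 was −0.48 ± 0.15 and in the combination −0.46 ± 0.15. In edgeR's quasi-likelihood test the Benjamini-Hochberg adjusted p was 0.30 and 0.60, and in DESeq2 the TiO2 comparison passed with an adjusted p of 0.0373.

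GstE5 was counted at 14.9, 6.61 and 9.99 CPM in control, 5.38, 3.79 and 5.86 CPM after cisplatin, 3.91, 4.98 and 4.36 CPM with TiO2, and 3.24, 7.52 and 3.42 CPM in the combination. Both single treatments lay below control, and combination replicate 2 overlapped it. The log2 fold change was −1.07 ± 0.40, −1.25 ± 0.41 and −1.15 ± 0.41 in the order given, with edgeR quasi-likelihood adjusted p (Benjamini-Hochberg) of 0.27, 0.30 and 0.60.

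GstE6, the most abundant epsilon gene per length, behaved otherwise. It stood at 149, 113 and 149 CPM in control, 163, 141 and 127 CPM after cisplatin, 105, 133 and 117 CPM with TiO2, and 111, 99.2 and 104 CPM in the combination. Cisplatin libraries overlapped control, and the combination libraries were all below both groups. Its log2 fold change of the combination against cisplatin was −0.46 ± 0.16, at a Benjamini-Hochberg adjusted p of 0.334 (edgeR quasi-likelihood).

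GstE4 was scarce, at 2.42, 3.57 and 0.817 CPM in control, 0.822, 1.08 and 0.850 CPM after cisplatin, 1.04, 0.830 and 0.745 CPM with TiO2, and 1.00, 3.40 and 2.75 CPM in the combination. Control replicates 1 and 2 and combination replicates 2 and 3 were high and all other libraries low, so that every group overlapped control. The combination exceeded cisplatin by 1.37 ± 0.57 and TiO2 by 1.45 ± 0.57 on the log2 scale, with edgeR quasi-likelihood adjusted p (Benjamini-Hochberg) of 0.334 and 0.617.

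**Figure D4:**
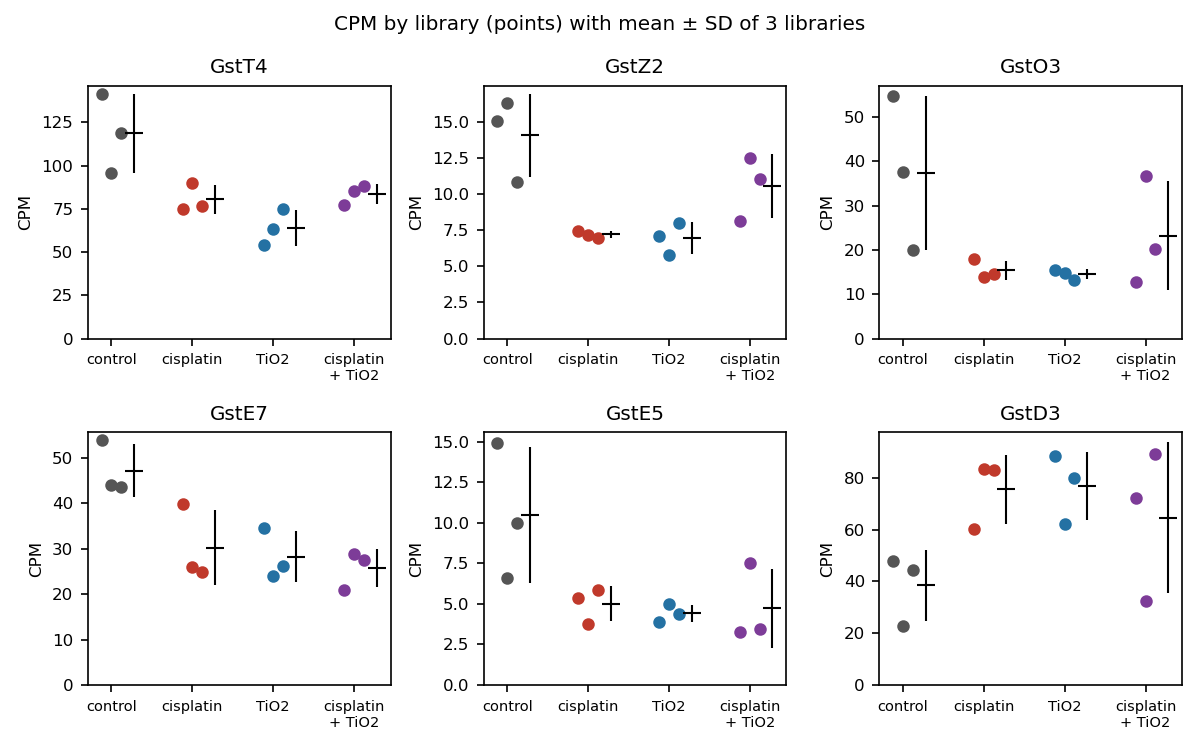
CPM in each library (points) with mean ± SD of 3 libraries (bars) for GstT4, GstZ2, GstO3, GstE7, GstE5 and GstD3 in the 4 groups, on linear axes from 0. The cisplatin and TiO2 points of GstT4, GstZ2, GstO3, GstE7 and GstE5 lie below all control points, and those of GstD3 above.

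Omega class. Members of this class act as thioltransferases and dehydroascorbate reductases. GstO3 gave 54.7, 37.7 and 19.9 CPM in control, 17.9, 13.8 and 14.5 CPM after cisplatin, 15.4, 14.8 and 13.2 CPM with TiO2, and 12.8, 36.7 and 20.1 CPM in the combination. Single treatments lay below control without overlap, and the combination overlapped it. Log2 fold changes of −1.28 ± 0.41 after cisplatin and −1.37 ± 0.41 with TiO2 came with Benjamini-Hochberg adjusted p of 0.27 and 0.294 (edgeR quasi-likelihood), while DESeq2 gave 0.0493 for TiO2.

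GstO2, the most abundant omega gene per length, was steadier, at 98.5, 83.0 and 82.7 CPM in control, 77.7, 77.7 and 75.8 CPM after cisplatin, 73.7, 78.6 and 72.6 CPM with TiO2, and 68.3, 77.6 and 81.2 CPM in the combination. All treated libraries were below all control libraries, although the gap between combination replicate 3 and the lowest control was small. GstO1 was at 22.9, 29.9 and 40.3 CPM in control, 44.5, 44.5 and 37.4 CPM after cisplatin, 36.9, 39.1 and 38.0 CPM with TiO2, and 40.0, 18.6 and 36.7 CPM in the combination. Its low libraries were control replicates 1 and 2 and combination replicate 2, and all groups overlapped.

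Sigma class. GstS1, an abundant protein of indirect flight muscle that acts on lipid peroxidation products, was the member with the widest range among the abundant ones. It gave 1795, 1247 and 220.4 CPM in control, 191, 307 and 348 CPM after cisplatin, 629, 526 and 345 CPM with TiO2, and 197, 2362 and 735 CPM in the combination. Control replicates 1 and 2 and combination replicate 2 were high, and control replicate 3 was as low as the cisplatin libraries, so all groups overlapped. Combination replicate 2 and control replicate 1, its highest libraries, also had the highest mitochondrial shares (12.4% and 16.7%). In log2 terms the fold change after cisplatin was −1.95 ± 0.85, with an edgeR quasi-likelihood adjusted p (Benjamini-Hochberg) of 0.27. The combination exceeded cisplatin by 1.96 ± 0.85 (adjusted p = 0.338), and that difference was 0.72 without combination replicate 2. Against control the combination was at 0.01 ± 0.82, at −1.22 without combination replicate 2, and at 0.56 without control replicate 1.

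Muscle RNA moved with GstS1. The summed level of 8 muscle genes (Mhc, Act88F, Act57B, up, wupA, Mlc2, TpnC4 and fln) ran from 3975 to 33794 CPM in control, 2367 to 6113 CPM after cisplatin, 4727 to 9169 CPM with TiO2 and 2895 to 40474 CPM in the combination, with none of the 8 at 0. GstS1 and this sum had the same rank in 10 of 12 libraries and differed by 1 rank in the others. While GstS1 differed 12.4-fold and the muscle sum 17.1-fold between libraries, GstS1 as a percent of the muscle sum differed 1.52-fold, from 5.31% to 8.08%. The part of muscle content in the GstS1 differences was not tested. Libraries share their depth and composition across these genes, and no p is given for the ranks.

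**Figure D5:**
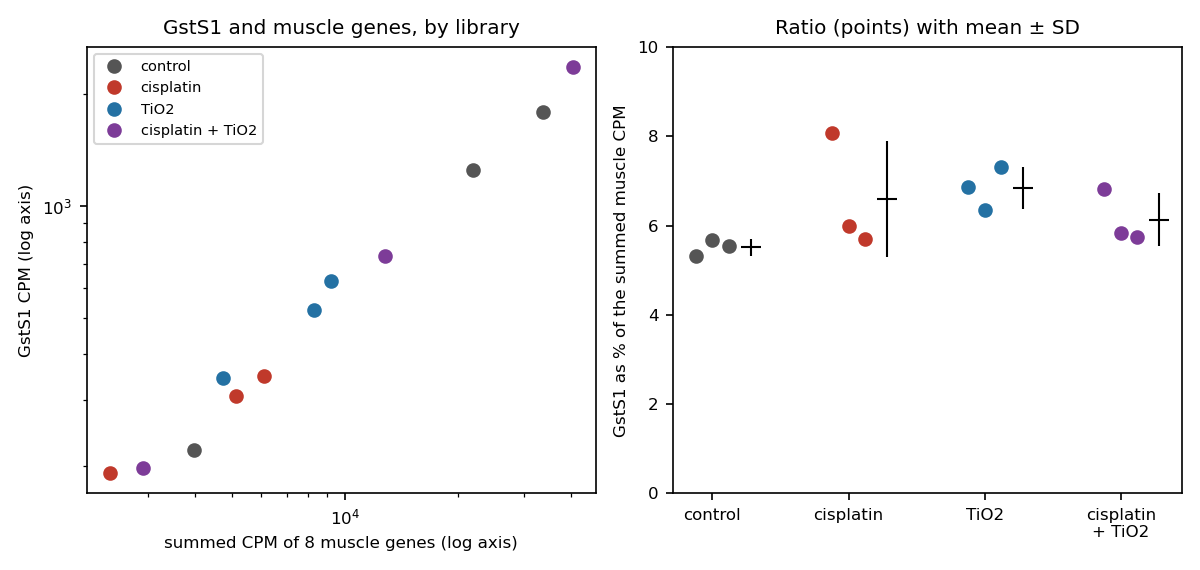
Left, CPM of GstS1 against the summed CPM of 8 muscle genes in the 12 libraries (log axes, coloured by group); right, GstS1 as a percent of that sum in each library (points) with mean ± SD of 3 libraries. The points of all groups fall along 1 line over a 17.1-fold range, and the percent lies between 5.31 and 8.08.

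Theta class. GstT4 was the theta gene with the highest level per length and had the smallest unadjusted p of the family in the comparison of TiO2 with control. It was at 142, 95.8 and 119 CPM in control, 75.1, 90.1 and 76.4 CPM after cisplatin, 54.2, 63.2 and 74.7 CPM with TiO2, and 77.0, 85.2 and 88.4 CPM in the combination. All 9 treated libraries were below all control libraries, and the combination libraries were all above the TiO2 libraries. On the log2 scale the fold change was −0.56 ± 0.18 after cisplatin, −0.89 ± 0.18 with TiO2 and −0.51 ± 0.18 in the combination. Adjusted p in edgeR's quasi-likelihood fit (Benjamini-Hochberg) was 0.27, 0.277 and 0.60, although the unadjusted p with TiO2 was 0.000495. DESeq2 gave an adjusted p of 0.000216 for TiO2, and without control replicate 1 the TiO2 fold change was −0.76. GstT1 was at 55.7, 53.5 and 69.2 CPM in control, 69.9, 72.3 and 64.9 CPM after cisplatin, 55.5, 59.5 and 63.3 CPM with TiO2, and 63.3, 38.7 and 56.8 CPM in the combination, which lay wholly below cisplatin.

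Zeta class. Zeta enzymes isomerize maleylacetoacetate in the breakdown of tyrosine. GstZ2 stood at 15.1, 16.3 and 10.8 CPM in control, 7.48, 7.17 and 6.98 CPM after cisplatin, 7.09, 5.81 and 8.01 CPM with TiO2, and 8.16, 12.5 and 11.0 CPM in the combination. Both single treatments lay below every control library, the combination lay above both of them, and it overlapped control. The log2 fold change was −0.96 ± 0.25 after cisplatin and −1.01 ± 0.25 with TiO2 (edgeR quasi-likelihood, Benjamini-Hochberg adjusted p = 0.27 and 0.277), and DESeq2 gave adjusted p of 0.00749 and 0.00389. GstZ1, the more abundant zeta gene, was at 18.9, 13.6 and 15.9 CPM in control, 14.6, 15.6 and 14.6 CPM after cisplatin, 12.7, 14.4 and 14.6 CPM with TiO2, and 14.6, 12.8 and 14.2 CPM in the combination, and its treated groups overlapped control.

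Without overlap, 11 members were below control after cisplatin (15.0% of genes): GstZ2, GstE1, GstE2, GstE3, GstE5, GstE7, GstE11, GstE12, GstT4, GstO3 and GstO2. With TiO2 14 members were (14.9% of genes), namely these 11 with GstD5, GstE9 and GstE13. In the combination 7 members were (5.06% of genes): GstE1, GstE6, GstE7, GstE8, GstE13, GstT4 and GstO2. Of these, GstE1, GstE7, GstT4 and GstO2 were below control in all 3 comparisons, which share the control libraries. The share of all genes below control in all 3 comparisons is not given here, so these members cannot be set against it.

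The spread of the control and combination libraries ran through many members. Control replicates 1 and 2 and combination replicate 2 were the 3 highest libraries for 10 members (GstD11, GstE2, GstE3, GstE9, GstE10, GstE12, GstE14, GstO3, GstS1 and GstZ2), as they were for 28.5% of all genes tested. They were also the 3 highest in the summed muscle, cuticle, eye, hemocyte and Malpighian tubule markers. For GstO1 and GstT2 they were the 3 lowest, as for 32.1% of genes. Cuticle markers (70 genes, 5 of them at 0 throughout) summed to 128 to 3938 CPM in control, 111 to 381 CPM after cisplatin, 169 to 852 CPM with TiO2 and 94.4 to 4044 CPM in the combination. Hemocyte markers (Hml and NimC1, neither at 0) summed to 48.5 to 99.6, 35.2 to 52.8, 25.3 to 35.0 and 18.0 to 66.4 CPM in the same order. The part of tissue content in the members' differences was not tested.

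The combination was also compared with each single treatment, and the effects were tested for additivity on the log2 scale. Against cisplatin, edgeR called 0 members, while 4 reached an unadjusted p under 0.05, of which 3 were higher and 1 was lower (14.4% of genes, 13.4% higher and 1.01% lower). Without overlap GstZ2 was higher (7.57% of genes), and GstZ1, GstE6, GstT1 and GstD1 were lower (7.82% of genes). Against TiO2, edgeR called 0 members, while 2 reached an unadjusted p under 0.05, both of them higher (6.78% of genes, 6.58% higher). GstZ2 and GstT4 were higher without overlap (4.23% of genes), and no member was lower (2.33% of genes). DESeq2 called 0 members in either comparison (0.370% and 0.0207% of genes), while voom with sample weights called 7 (23.7%) and 2 (3.15%). The family median was −0.18 against cisplatin and 0.11 against TiO2, beside −0.04 and 0.02 over all genes. Against cisplatin 13 members were above 0 and 22 below (47.2% and 52.8% of genes), and against TiO2 24 were above and 11 below (51.0% and 49.0% of genes).

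The interaction asks whether the combination differs from the sum of the single effects. For 23 of 35 members it was above 0 (51.8% of genes) and for 12 below (48.2% of genes). A value above 0 says that the combination level was higher than that sum on the log2 scale. The median was 0.30 in the family and 0.07 over all genes. In the family it was 0.59 without cisplatin replicate 2, 0.18 without cisplatin replicate 3 and 0.19 without combination replicate 2. edgeR called 0 members, while 10 reached an unadjusted p under 0.05, of which 9 were above 0 and 1 was below (31.7% of genes, 26.7% above and 4.98% below). GstZ2 had an interaction of 1.56 ± 0.35, GstT4 of 0.94 ± 0.25 and GstE4 of 2.75 ± 0.80, each at a Benjamini-Hochberg adjusted p of 0.129 (edgeR quasi-likelihood). DESeq2 called 5 members (GstZ2, GstE4, GstE9, GstT4 and GstO3; 11.7% of genes). In edgeR, 6 members passed without control replicate 3 (15.5% of genes) and 9 without combination replicate 1 (25.0% of genes). For any difference among the 4 groups, edgeR called 0 members, while 8 reached an unadjusted p under 0.05 (11.7% of genes), and DESeq2 called 3 (GstZ2, GstE7 and GstT4; 3.06% of genes). With voom weights 19 members (54.3%) had an interaction, where 72.0% of all genes did, and 22 (62.9%) differed among the groups, where 74.2% did.

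Genes around the family gave the following. Among 4 regulators, cnc was at 213, 236 and 316 CPM in control, 376, 403 and 381 CPM after cisplatin, 367, 386 and 391 CPM with TiO2, and 397, 237 and 329 CPM in the combination. Every library of either single treatment was above control, as for 15.6% of genes after cisplatin and 11.3% with TiO2. The combination overlapped control. The gene cnc had its 3 lowest values in control replicates 1 and 2 and combination replicate 2, as had 32.1% of genes tested. Its log2 fold change was 0.60 ± 0.20 after cisplatin and 0.58 ± 0.20 with TiO2, with edgeR quasi-likelihood adjusted p (Benjamini-Hochberg) of 0.27 and 0.30. Keap1, the inhibitor of cnc, averaged 21.8 CPM in control and 17.7, 16.7 and 19.2 CPM in the treated groups. The regulator maf-S averaged 51.6 CPM in control and 43.4, 41.2 and 42.1 CPM in the treated groups. For Hr96 these means were 59.5 CPM and 82.8, 79.7 and 65.3 CPM. In each comparison with control, 2 of the 4 regulators were above 0 and 2 below.

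Of 5 genes of glutathione supply and turnover (Gclc, Gclm, Gss1, Gss2 and Ggt-1), none passed and none had an unadjusted p under 0.05 against control. Gss1, a glutathione synthetase, had the smallest p against control. It was at 5.20, 5.11 and 4.19 CPM in control, 4.04, 3.24 and 3.46 CPM after cisplatin, 2.41, 3.97 and 3.91 CPM with TiO2, and 1.84, 4.00 and 2.80 CPM in the combination. All treated libraries were below all control libraries, and the log2 fold change in the combination was −0.75 ± 0.34. Among 13 ABCC transporters, which include exporters of conjugates, 7, 7 and 8 were above 0 against control, none passed, and 3, 5 and 1 had an unadjusted p under 0.05 (18.3%, 16.5% and 7.09% of all genes tested). The transporter gene with the identifier FBgn0010549, which had the smallest p against control, gave 5.35, 5.43 and 18.6 CPM in control, 15.4, 13.2 and 21.7 CPM after cisplatin, 31.8, 40.9 and 20.9 CPM with TiO2, and 30.02, 17.8 and 17.6 CPM in the combination. Only the TiO2 libraries were above control without overlap. Its log2 fold change there was 1.67 ± 0.50, and 2.54 without control replicate 3, at a Benjamini-Hochberg adjusted p of 0.293 (edgeR quasi-likelihood) and of 0.0369 in DESeq2.

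Beside the zeta class, 4 of the 5 listed genes of tyrosine breakdown passed the filter, and Tat did not. All 4 (Hn, Hpd, hgo and Faa) had a fold change below 0 after cisplatin and with TiO2, and 3 had an unadjusted p under 0.05 in each (15.0% and 12.8% of all genes tested were lower at that level), although none passed. Hpd, which makes homogentisate, was at 235, 157 and 140.2 CPM in control, 77.6, 82.9 and 65.6 CPM after cisplatin, 60.5, 58.8 and 57.6 CPM with TiO2, and 59.5, 131 and 118 CPM in the combination. All treated libraries were below all control libraries. Its log2 fold change with TiO2 was −1.59 ± 0.29, at a Benjamini-Hochberg adjusted p of 0.276 (edgeR quasi-likelihood) and of 8.95e-05 in DESeq2. Of 5 other genes with a glutathione transferase domain (se, Mgstl, gfzf, Clic and eEF1gamma), 1 was above 0 and 4 below in each comparison with control, and none passed. The eye pigment gene se was at 14.4, 11.3 and 0.899 CPM in control, 1.66, 1.63 and 0.941 CPM after cisplatin, 3.09, 1.48 and 2.12 CPM with TiO2, and 0.757, 19.5 and 5.27 CPM in the combination, high in the libraries that were high in GstS1.

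Other detoxification families gave medians of similar or larger size than the whole family (−0.28, −0.56 and −0.29). Of 84 cytochrome P450 genes 78 were tested, with medians of −0.71 after cisplatin, −0.90 with TiO2 and −0.32 in the combination, and 60, 66 and 56 of 78 below 0. Of 35 UDP-glycosyltransferase genes 32 were tested, with medians of −0.74, −0.81 and −0.27, and 26, 30 and 27 of 32 below 0. Over all genes tested 51.3%, 53.9% and 45.1% were below 0. The glutathione S-transferases outside the delta class, a set not among the planned lists, had medians of −0.64, −0.82 and −0.40 over 24 genes. In the combination this set was further below 0 than either of the other families. No difference between the families was tested.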

How the data were processed

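Raw counts of 17610 genes in 12 libraries were deposited by the authors as 1 table, laid out as featureCounts output per the file headers. The submitters' processing notes list FastQC, Trimmomatic, SAMtools, HTSeq and BWA without role or version. Libraries were stranded mRNA libraries per the labels' protocols, and aligner settings, genome build and strand setting of the counting are not given in the sources used here. The authors also deposited 3 comparison tables with log2 fold changes and adjusted p-values in the layout of DESeq2 results, per the file headers, with the design not stated. They were used for calls only.

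Symbols come from the gene name table given with the data (10 genes had none). The members and gene lists were chosen with earlier results of these data known. Counts were fitted with edgeR 4.0.16 (R 4.3.3): filterByExpr kept 11060 genes, TMM gave the scaling, and the quasi-likelihood fit took all 12 libraries together with 1 mean for each of the 4 groups. Tests were two-sided, adjusted by Benjamini-Hochberg over all genes tested, with a threshold of 0.05. The standard error of a log2 fold change is its size divided by the square root of its F statistic. CPM use TMM-scaled library sizes, and RPKM divide them by the merged exon length in the table. Fits were tried on simulated data that had less spread between libraries than these data and no outlying library. That trial therefore does not show how the fits behave on these data. Alternatives were DESeq2 1.42.0, limma 3.58.1 (voom with sample weights), other scalings and filters, mitochondrial genes left out, only the groups compared, a replicate block, and libraries left out. The count of members at an unadjusted p under 0.05 was added after seeing that no gene passed.

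Values in every library are given by rule for the 2 most abundant members of each class per length and for the 3 members with the smallest p in each test, which made 15 members, and for the gene with the smallest p in each pathway list over the 3 comparisons with control. Other members named were chosen after their values were seen. 1 listed symbol (nos) was not found. Sequences are not used here.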

Additional observations from a re-analysis of the deposited data

How the results depend on the processing

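The counts of members past the adjusted threshold, 0 in edgeR in all 7 tests, were 1, 4, 1, 5 and 3 in DESeq2 (cisplatin, TiO2 and combination against control, interaction, any difference) and with voom weights 22, 20, 14, 7, 2, 19 and 22 (the 3 comparisons with control, the combination against cisplatin and against TiO2, interaction, any difference). The share of all genes called with voom weights was 73.6%, 71.5%, 58.4%, 23.7%, 3.15%, 72.0% and 74.2% in that order. Leaving out 1 library changed only the interaction, from 0 to 9 members (9 without combination replicate 1, 6 without control replicate 3, with 25.0% and 15.5% of all genes). Counts at an unadjusted p under 0.05, in the same order, were 23, 22, 17, 13, 8, 21 and 22 with voom weights, beside 75.5%, 73.8%, 63.8%, 40.1%, 33.1%, 74.3% and 76.4% of all genes. With 1 library left out they ran from 5 to 16, 7 to 14, 3 to 13, 2 to 8, 0 to 7, 5 to 14 and 2 to 13, and the share of all genes from 5.31% to 46.9%, 6.37% to 44.4%, 4.64% to 21.9%, 2.17% to 27.5%, 1.25% to 22.8%, 17.2% to 55.0% and 6.58% to 26.8%. Without both control replicate 1 and combination replicate 2 they were 11 (combination against control, 12.8% of genes), 1 (against TiO2, 1.82%) and 5 (interaction, 10.7%). With only the groups compared they were 2, 2 and 1 for the combination against control, cisplatin and TiO2 (1.93%, 7.07% and 2.30% of genes), and with no filter 2 against cisplatin (15.0%). The cause of these changes was not tested.

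The family median kept its sign against control and in the interaction. With 1 library left out it ran from −0.60 (without cisplatin replicate 2) to −0.11 for cisplatin, −0.72 to −0.44 for TiO2, −0.55 (without combination replicate 2) to −0.22 for the combination, −0.21 to 0.080 (without cisplatin replicate 2) against cisplatin, −0.01 to 0.35 against TiO2, and 0.18 to 0.59 (without cisplatin replicate 2) for the interaction. For 34 fold changes of named genes, 663 of 711 values under alternatives kept direction and side of the threshold, 48 passed it and 0 reversed. These genes were named largely for a small p or a high level in the same libraries, so few reversals could arise. Values with voom weights are among the 48, and there 73.6%, 71.5% and 58.4% of all genes passed against control. The control and combination levels of that fit rest mostly on control replicate 2 and combination replicate 3.

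No pairing of libraries by replicate number was evident: deviations of same-numbered libraries from their group means correlated from −0.740 to 0.468, with 6 of 18 pairs over 0.1. Control replicate 3 and combination replicate 1, with different numbers, correlated at 0.836. With 3 libraries a group, outlying libraries can set such correlations, so they do not show that no batch was shared. With a replicate block the cisplatin median was −0.53, and the unadjusted counts were 7 (cisplatin, 12.6% of genes), 2 and 1 (combination against cisplatin and TiO2, 8.44% and 2.86%); no adjusted count changed.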

Other observations

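The other 9 genes that stood more than 1.5-fold above every other library in cisplatin replicate 2 included 4 further genes of detoxification families. They were the UDP-glycosyltransferases Ugt37A3 (72.2 CPM, 4.84-fold above the next library) and Ugt37A2 (29.1 CPM, 1.74-fold), and the cytochrome P450 genes Cyp9b2 (264 CPM, 2.15-fold) and Cyp6d2 (8.77 CPM, 2.96-fold). The remaining genes were CG17715 (9.88-fold), CG11893 (6.79-fold), lncRNA:CR44138 (6.53-fold), CG10559 (2.02-fold) and the glucosidase gene tobi (1.78-fold, at 757 CPM). All 9 were chosen after their values were seen. By the same measure, 1262 genes (11.4%) stood apart in combination replicate 2 and 338 (3.06%) in control replicate 1, with 0 and 1 members among them, and between 1 and 53 genes in each of the other 9 libraries, with no member.

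The scarce members rest on few counts: GstD6 had at most 27 in a library, and GstD11 between 1 and 58. With 3 libraries a group, single libraries were not tested as outliers. Fold changes of members that did not pass the adjusted threshold describe these libraries.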
